A study of Mus musculus with 6 samples.

Results

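The genes described here encode the molecular motors of the newborn mouse lens: myosins and their light chains, kinesins with the kinesin light chains, and the subunits of cytoplasmic dynein. They were chosen by gene symbol, as every myosin (Myo, Myh or Myl followed by a digit), kinesin (Kif or Klc followed by a digit) and dynein (Dync or Dynl) gene with a probe set assigned to it alone. The choice was made with earlier results of these data known. The mitotic kinesins Kif11, Kif20a, Kif22 and Kif23 were left out by the rule. This gave 72 genes of the 12393 genes measured, with 132 probe sets, and the brightest probe set, by its mean over the arrays, stands for each gene. Of the 72, 40 were myosin, 23 kinesin and 9 dynein genes.

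Motor proteins turn ATP hydrolysis into movement along the cytoskeleton. Myosins pull on actin filaments, either as bipolar filaments that contract (myosin II) or as carriers and tethers of membranes (the unconventional classes), while most kinesins walk towards the plus ends and dynein towards the minus ends of microtubules. In the lens, non-muscle myosin II works in the bending of the lens placode and at the membranes of the long fibre cells, and microtubule motors carry cargo along those cells.

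RNA came from lenses of newborn mice (postnatal day 0), with 1 array for each sample. Le-AP-2alpha conditional mutants, in which Tfap2a (Tcfap2a in the labels), the gene of the transcription factor AP-2alpha, is targeted, had 3 arrays, and their wild-type littermates had 3. Le-Cre is generally described as driven by Pax6 regulatory sequence in the surface ectoderm, which forms cornea and eyelid epithelium besides the lens. The labels name no driver, give no further genotype for the wild types, and leave unsaid whether several animals were pooled for a sample. The design text calls the samples of a group biological replicates, and the p-values rest on the variation among these 6. The series asks what AP-2alpha does within the lens, including its epithelium.

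Levels are log2 of the deposited intensity, and differences are mutant minus wild type on that scale. The median log2 per array lay between 5.19 and 5.32. A probe set with a mean below 5.26, the median of all tested probe sets, is called dim and the others bright; 35 motor genes were dim and 37 bright. Wild-type replicate 1 stood apart, with a Pearson correlation of 0.926 to 0.945 to each other array, where the rest had 0.974 to 0.985 between them. The brightest Tfap2a probe set was at 9.57, 9.64 and 9.83 in mutants and 8.36, 9.26 and 9.56 in wild types. Its other probe sets, both bright, differed by 0.36 and 1.57, the latter at 8.86, 7.85 and 9.22 in mutants and 6.44, 7.87 and 6.92 in wild types. Which part of the gene these probes cover is not known here, so they do not check the deletion. Lens fibre markers such as Cryaa and Mip were bright on every array. Their list mean was 12.45 to 12.76 in mutants and 12.86 to 13.13 in wild types, with 7 of 8 lower in mutants, groups apart for Dnase2b (-1.44) and Bfsp1 (-0.65), and 0 past the threshold.

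No motor gene passed the test. limma called 0 of 72 at an adjusted p under 0.05, where 0% of the 12393 genes were called, and the lowest adjusted p among motor genes was 0.885, for Myl2 and Myo5b. The other 70 had an adjusted p of 0.999. At an unadjusted p under 0.05 there were 4 motor genes, beside 3.85% of all genes. Lower in mutants were Myl2, Myo5b and Myl4, beside 1.72% of all genes, and higher was Kif18a, beside 2.13%. The median difference of the motor genes was -0.07, beside -0.01 for all genes, and 31 of 72 were higher in mutants, which is 43.1%, beside 47.8% of all genes.

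A log2 difference of 1 or more was seen for 5 motor genes, or 6.94% of the 72, beside 2.24% of all genes. The 4 lower ones were Myo5b, Myo7b, Myl2 and Myl4, all of them myosin genes, beside 0.662% of all genes, and the higher one was Kif18a, beside 1.57%. The groups did not overlap for 9 motor genes (12.5%), beside 8.8% of all genes. Every mutant array was below every wild-type array for 7 (9.72%), beside 4.58% of all genes: Myo5b, Myl2, Myl4, Myl12a, Myo15b, Myo1g and Myh2. Every mutant array was above for 2 (2.78%), Kif18a and Myo9a, beside 4.22% of all genes.

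**Figure D1:**
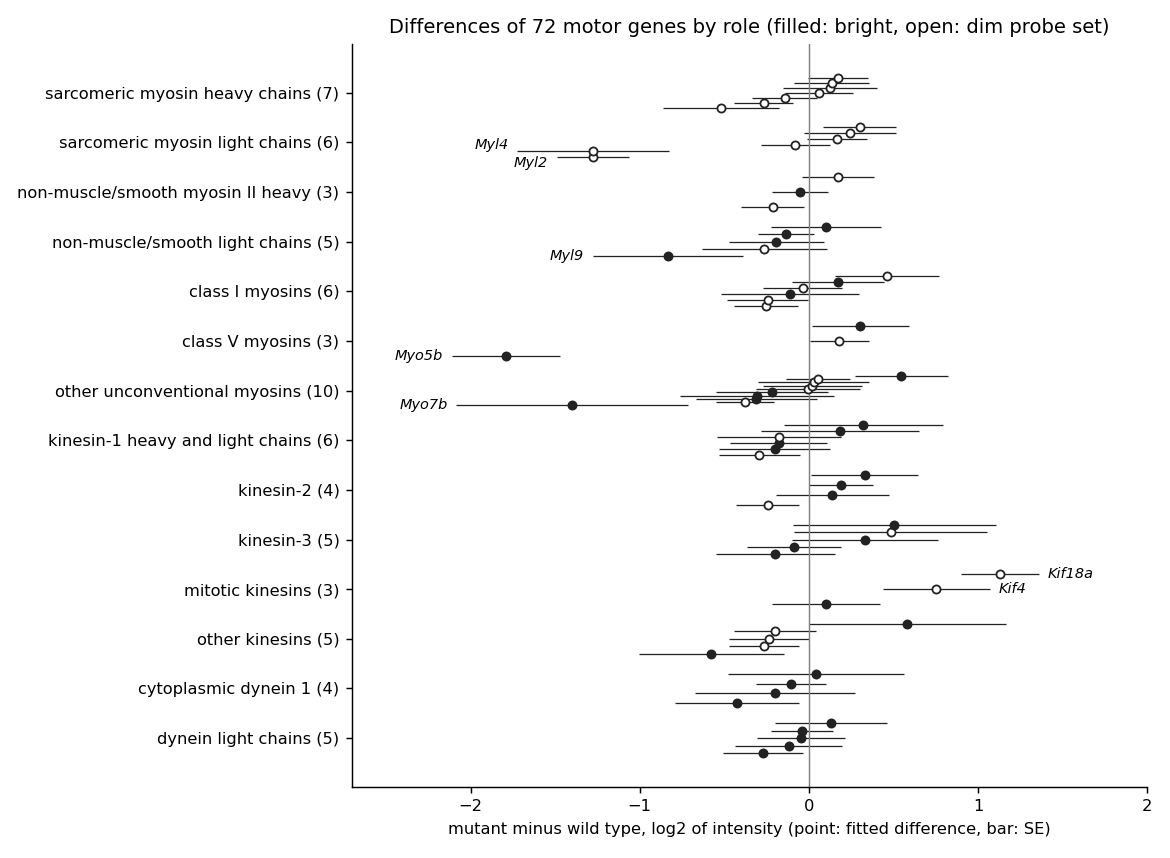
Fitted difference, mutant minus wild type, in log2 of intensity (horizontal axis), with its standard error, for each of the 72 motor genes in rows by role; filled points are bright and open points dim probe sets. Myo5b (-1.79), Myo7b (-1.40), Myl2 (-1.28) and Myl4 (-1.28) lie to the left and Kif18a (1.13) to the right, and none passed the adjusted threshold.

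Among the class V myosins, which carry membrane cargo along actin, Myo5b had the lowest p. Myo5b, a motor of the recycling endosome that works with Rab11, was at 5.02, 5.87 and 5.78 in mutant replicates 1 to 3 and at 7.66, 6.90 and 7.50 in wild-type replicates 1 to 3. All mutant arrays were below all wild-type arrays, with a gap of more than the range within either group. The difference was -1.79 ± 0.32 (SE), 3.47-fold lower, with a limma adjusted p of 0.885. It lay between -2.02 and -1.50 over all alternatives tried, and its lowest adjusted p was 0.0826, with arrays weighted. Myo5b had 1 probe set.

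The other class V genes did not share that difference in value. Myo5a, the motor of melanosomes and of neuronal cargo, was at 6.87, 6.88 and 7.40 in mutants and 6.27, 6.84 and 7.13 in wild types, a difference of 0.30 ± 0.29. Its second probe set, also bright, differed by -0.07, and in it wild-type replicate 1 was the highest array (7.01) where in the first it was the lowest. Myo5c, which acts in secretory epithelia, was dim, between 2.66 and 3.06 on all arrays, with a difference of 0.18 ± 0.18. A test of Myo5b against Myo5a or Myo5c was not made.

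The light chains of sarcomeric myosin were dim, and of the 6 measured, 3 were higher and 3 lower in mutants, with Myl2 and Myl4 differing most. Myl2, the regulatory light chain of slow muscle and of the heart ventricle, was at 3.99, 3.41 and 3.52 in mutants and 4.91, 5.0 and 4.85 in wild types. The wild-type arrays lay within a narrow range, and every mutant array was below it. The difference was -1.28 ± 0.21 (2.42-fold lower, limma adjusted p = 0.885), and it was -1.28 without wild-type replicate 1 too. Myl4, the essential light chain of the atrium and of embryonic muscle, was at 3.91, 3.99 and 4.35 in mutants and 6.29, 4.49 and 5.30 in wild types. Its wild-type arrays were spread widely, and mutant replicate 3 lay just below wild-type replicate 2. Its difference was -1.28 ± 0.45 (adjusted p = 0.999 by limma) and -0.81 without wild-type replicate 1, and its second probe set, also dim, differed by -0.16. The other 4 light chains (Myl1, Myl3, Myl7 and Myl10) had differences of -0.08 to 0.30.

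The sarcomeric myosin heavy chains were all dim. The 7 measured (Myh1, Myh2, Myh3, Myh4, Myh6, Myh7 and Myh8) had values of 2.27 to 4.29 on all arrays, where the lowest value of any probe set on an array was 1.97 to 2.08. Myh7, the slow and cardiac beta heavy chain, was at 2.99, 3.71 and 3.68 in mutants and 4.29, 3.35 and 4.29 in wild types, a difference of -0.52 ± 0.34 with overlapping groups. Myh2, the heavy chain of fast IIA fibres, differed by -0.27 ± 0.17, and Myh3, the embryonic heavy chain, by -0.14 ± 0.19. Of the 7, 4 were higher and 3 lower in mutants, with a median difference of 0.06.

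Markers of striated muscle were low on these arrays. Of 18 measured genes of that list, 16 were dim and 0 passed, with a median difference of -0.09, and the list mean was 3.53 to 3.73 in mutants and 3.62 to 3.98 in wild types. In the list, 7 genes were higher and 11 lower in mutants, and the dim ones ran from -0.67 (Des) to 0.45 (Mb). The skeletal alpha-actin Acta1, also dim, was at 2.57 to 2.80 in mutants and 2.78 to 3.62 in wild types. Actn2, the alpha-actinin of the Z-disc, was bright, at 6.26, 6.98 and 5.91 in mutants and 9.27, 6.96 and 8.21 in wild types, a difference of -1.76 ± 0.60 (limma adjusted p = 0.999). Its wild-type arrays had the same order as those of Myl4, with replicate 1 highest and replicate 2 lowest. Motor genes such as Myo7b and Dync1h1 had that order too, whereas Myl2 had another. In whole lens RNA, fewer cells of a type and less RNA per cell cannot be told apart, and the part of muscle RNA in the values of Myl2 and Myl4 was not tested.

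**Figure D2:**
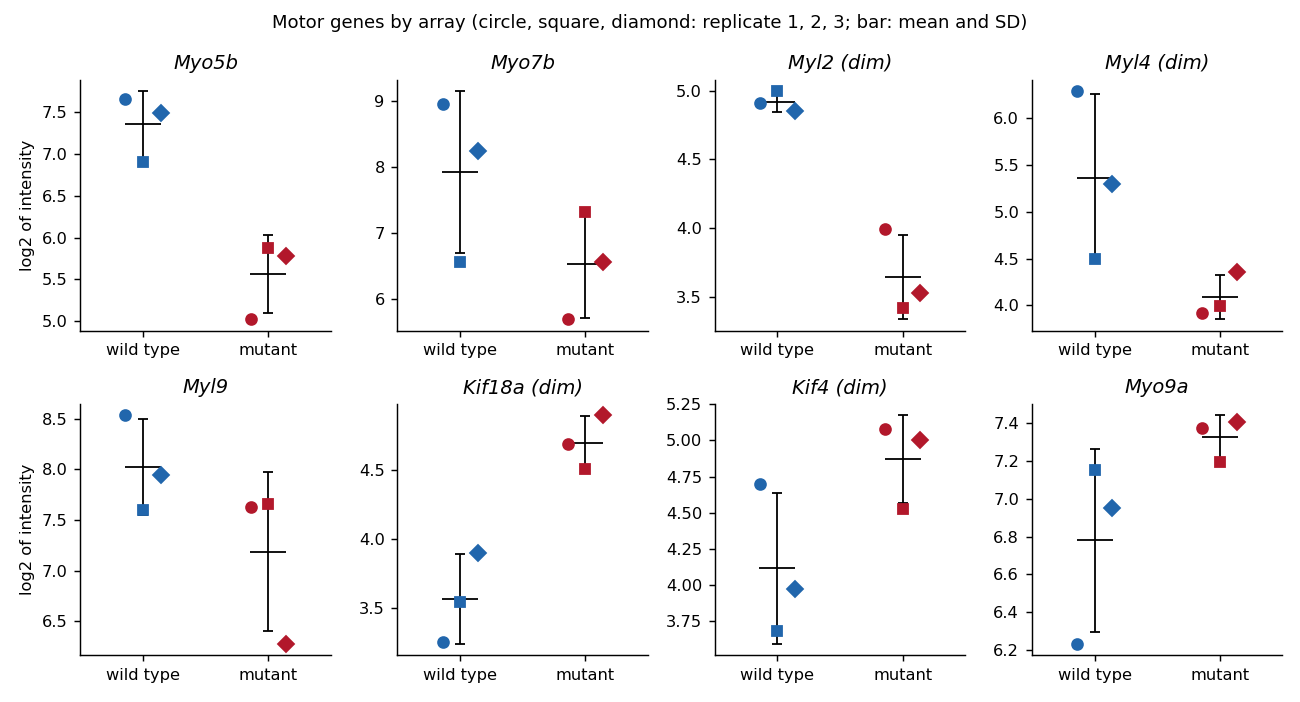
Log2 of intensity (vertical axis, a separate range for each gene) on each of the 3 wild-type (blue) and 3 mutant (red) arrays for 8 motor genes, with circle, square and diamond for replicates 1, 2 and 3 and bars for mean and SD. The groups are apart for Myo5b, Myl2, Myl4, Kif18a and Myo9a and overlap for Myo7b, Myl9 and Kif4.

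Of the remaining unconventional myosins, Myo7b and Myo9a had the largest differences, in opposite directions. Myo7b, the myosin of the tips of microvilli, was at 5.69, 7.31 and 6.56 in mutants and 8.96, 6.56 and 8.25 in wild types. Wild-type replicate 2 lay among the mutants, so the groups overlapped. The difference was -1.40 ± 0.68 (limma adjusted p = 0.999) and -0.88 without wild-type replicate 1. Myo9a, a myosin with a RhoGAP domain, was at 7.38, 7.20 and 7.41 in mutants and 6.23, 7.15 and 6.95 in wild types. Every mutant array was above every wild-type array, the closest pair being mutant replicate 2 and wild-type replicate 2. The difference of 0.55 ± 0.28 was 0.27 without wild-type replicate 1.

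The other unconventional myosins overlapped between the groups, except Myo15b. Myo6, the myosin that moves towards the minus end of actin, differed by -0.31 ± 0.36, Myo18a by -0.31 ± 0.46 and Myo9b, a second RhoGAP myosin, by -0.22 ± 0.33. Without wild-type replicate 1 these were -0.61 for Myo6, 0.18 for Myo18a and 0.06 for Myo9b, and the second bright probe set of Myo6 went from -0.06 to -0.85. The dim genes of this group were Myo7a, Myo10, Myo15, Myo15b and Myo19, with differences of -0.38 to 0.06. Myo15b had groups that did not overlap, at 3.12 to 3.30 in mutants and 3.49 to 3.69 in wild types, a difference of -0.38 ± 0.17, and its second probe set, also dim, differed by 0.15. Of the 10 genes, 4 were higher and 6 lower.

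Class I myosins, single-headed motors that link membrane to actin, had 6 members measured, of which Myo1h and Myo1c were bright. Myo1h was at 9.07, 8.85 and 9.39 in mutants and 9.28, 9.02 and 8.49 in wild types, a difference of 0.17 ± 0.27. Myo1c, a motor of exocytosis, differed by -0.11 ± 0.41, with wild types spread from 6.94 to 8.28. Myo1e, at 2.97 to 4.07 in mutants and 2.90 to 3.26 in wild types, had the lowest p of the class, with a difference of 0.46 ± 0.31. All its probe sets were dim, and the others differed by 0.30 and -0.20. The leukocyte myosins Myo1f and Myo1g were dim, with differences of -0.24 ± 0.24 and -0.25 ± 0.19.

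Non-muscle myosin II, the contractile motor of epithelial and fibre cells, was represented by Myh9 and Myh14. Myh9, the heavy chain of myosin IIA, was bright and nearly level over the arrays, at 12.37, 12.29 and 12.20 in mutants and 12.30, 12.31 and 12.40 in wild types. Its difference was -0.05 ± 0.16, the SD was 0.08 in mutants and 0.06 in wild types, and a second bright probe set differed by 0.02. A further bright probe set of Myh9, at 5.33 to 5.60 in mutants and 5.55 to 6.25 in wild types, differed by -0.49. Myh14, the heavy chain of myosin IIC, was dim with a difference of 0.17 ± 0.21, and the smooth muscle heavy chain Myh11 was dim with -0.21 ± 0.19. Myh10, the heavy chain of myosin IIB, was not analysed here.

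The light chains that pair with these heavy chains were mostly bright. Myl12a and Myl12b, regulatory light chains of non-muscle myosin, differed by -0.13 ± 0.16 and -0.19 ± 0.28. Myl12a was at 10.71, 10.73 and 10.80 in mutants and 10.86, 10.82 and 10.97 in wild types, so that the groups were apart by a small gap. Myl9, the regulatory light chain of smooth muscle and of contractile non-muscle cells, was at 7.62, 7.66 and 6.28 in mutants and 8.53, 7.60 and 7.94 in wild types. Wild-type replicate 2 overlapped the mutants, and mutant replicate 3 was the lowest array. Its difference of -0.83 ± 0.44 was -0.38 without mutant replicate 3. Myl6 and Myl6b, essential light chains, differed by 0.10 ± 0.33 and -0.26 ± 0.37. Of the 5 light chains, 1 was higher and 4 were lower.

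Of the mitotic kinesins among the members, Kif18a and Kif4 had the largest differences, and none passed the test. Kif18a, which dampens chromosome movement at the metaphase plate, was at 4.69, 4.51 and 4.90 in mutants and 3.26, 3.55 and 3.90 in wild types. All mutant arrays were above all wild-type arrays. The difference was 1.13 ± 0.23, 2.19-fold higher, with a limma adjusted p of 0.999, and 0.97 without wild-type replicate 1. Kif4, a chromokinesin of chromosome arms and the spindle midzone, was at 5.08, 4.53 and 5.01 in mutants and 4.70, 3.68 and 3.97 in wild types. The groups overlapped through wild-type replicate 1, and the difference was 0.75 ± 0.31 with all arrays and 1.04 without that array. Kif2c, the microtubule depolymerase of centromeres, differed by 0.10 ± 0.32, and by -0.22 to 0.38 over the alternatives, with probe sets of both signs. Its mean was just above the median of all probe sets, and Kif18a and Kif4 were dim.

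The mitotic kinesins outside the rule gave values in both directions. Kif23, of the central spindle, differed by 0.80 ± 0.25 with groups apart, Kif11 by 0.38 ± 0.37, Kif22 by 0.19 ± 0.19 and Kif20a by -0.27 ± 0.38. Of the 10 measured markers of dividing cells, 8 were higher and 2 lower in mutants, with a median difference of 0.50 and 0.30 without wild-type replicate 1, and 0 passed. The list mean was 7.35 to 8.0 in mutants and 6.88 to 7.79 in wild types, so the groups overlapped. How far the number of dividing cells enters the values of Kif18a and Kif4 was not tested.

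Promoter sequence is shown for the light chain and mitotic kinesin genes just described, since AP-2alpha binds DNA and these pairs had the lowest p of their role groups. Each sequence is the 250 bases before a start site, from RefSeq with the GRCm38.p6 build, on the plus strand, which is the gene's own strand. Capitals mark matches to GCCNNNGGC (the AP-2 site, which reads the same on both strands), CCAAT (the CCAAT box) or TATAAA (the TATA box), the last 2 searched on both strands; no matches overlap. Myl2 has 2 starts in that table, with windows chr5:122092474-122092723 and chr5:122092939-122093188; the others are chr11:104550413-104550662 for Myl4, chr2:109280488-109280737 for Kif18a and chrX:100625815-100626064 for Kif4.
Myl2, first start: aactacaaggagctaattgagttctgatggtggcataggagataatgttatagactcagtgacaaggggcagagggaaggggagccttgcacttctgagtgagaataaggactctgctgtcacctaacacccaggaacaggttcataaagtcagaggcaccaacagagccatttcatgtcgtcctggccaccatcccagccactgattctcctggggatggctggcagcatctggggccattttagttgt
Myl2, second start: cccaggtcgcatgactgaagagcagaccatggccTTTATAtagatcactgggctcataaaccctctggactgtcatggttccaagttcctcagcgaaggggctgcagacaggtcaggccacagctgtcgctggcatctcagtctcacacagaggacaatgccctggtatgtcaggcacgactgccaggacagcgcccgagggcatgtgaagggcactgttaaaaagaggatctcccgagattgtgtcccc
Myl4: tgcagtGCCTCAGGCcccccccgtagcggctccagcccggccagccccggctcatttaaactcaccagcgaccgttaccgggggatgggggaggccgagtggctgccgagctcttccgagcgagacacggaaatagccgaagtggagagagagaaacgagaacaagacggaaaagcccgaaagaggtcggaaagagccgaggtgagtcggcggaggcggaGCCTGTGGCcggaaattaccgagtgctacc
Kif18a: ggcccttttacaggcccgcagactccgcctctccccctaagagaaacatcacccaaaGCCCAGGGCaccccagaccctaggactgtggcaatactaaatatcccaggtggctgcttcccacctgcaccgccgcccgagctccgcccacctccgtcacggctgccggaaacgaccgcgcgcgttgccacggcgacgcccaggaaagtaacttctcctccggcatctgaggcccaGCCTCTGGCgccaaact
Kif4: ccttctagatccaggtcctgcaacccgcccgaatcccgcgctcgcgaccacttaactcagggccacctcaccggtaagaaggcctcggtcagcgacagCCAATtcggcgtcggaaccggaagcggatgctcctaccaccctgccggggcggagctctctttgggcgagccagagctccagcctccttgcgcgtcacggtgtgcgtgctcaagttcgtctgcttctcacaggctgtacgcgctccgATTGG

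Of the 4 genes shown, Myl4 and Kif18a have AP-2 matches, and their values differed in opposite directions. Myl4, lower in value in mutants, has matches whose first bases lie 244 and 30 bases before the start, and Kif18a, higher in value, has matches 193 and 17 bases before it. The windows of Myl2 and Kif4 hold none; that of Kif4 has CCAAT boxes 152 and 5 bases before the start, and the second window of Myl2 has a TATA box, read on the other strand (TTTATA here), 216 bases before it. Of the 72 motor genes, 8 had no promoter sequence available, among them Myo5b and Myo7b. The other 64 had 81 promoters. The AP-2 site was in 23 of these (28.4%), beside 18.9% of the 12566 promoters of genes on the array, the CCAAT box in 30.9% beside 34.7%, and the TATA box in 16% beside 8.81%. A match is a run of letters, not a site shown to be bound.

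Kinesin-1, the main plus-end motor of vesicles and mitochondria, showed no difference beyond the spread. Kif5b, its ubiquitous heavy chain, was at 9.54, 9.31 and 9.68 in mutants and 8.22, 9.95 and 9.80 in wild types. Wild-type replicate 1 was the lowest array, and the other arrays lay close together. The difference was 0.18 ± 0.47 with it and -0.37 without it. The neuronal heavy chains Kif5a, which was dim, and Kif5c differed by -0.29 ± 0.24 and -0.20 ± 0.33. The light chain Klc1, which binds cargo, was at 8.45, 9.24 and 7.93 in mutants and 8.52, 7.39 and 8.74 in wild types, a difference of 0.32 ± 0.47, while Klc3 and Klc4 differed by -0.18 each.

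Kinesin-2 and kinesin-3 genes also overlapped between the groups. Kif3a and Kif3b, the pair that drives intraflagellar transport in cilia, differed by 0.19 ± 0.19 and 0.33 ± 0.32. Kif3c, a neuronal kinesin-2, differed by 0.14 ± 0.33, and Kif17, a homodimeric kinesin-2, was dim with -0.24 ± 0.19. Kif1a, a carrier of synaptic vesicle precursors, was at 7.28, 6.64 and 7.47 in mutants and 7.40, 7.32 and 6.94 in wild types, a difference of -0.09 ± 0.28. Kif1b, a carrier of mitochondria and synaptic vesicle precursors, was at 11.22, 9.57 and 9.97 in mutants and 8.72, 10.59 and 9.94 in wild types, so that the highest and the lowest array were mutant replicate 1 and wild-type replicate 1. Its difference of 0.50 ± 0.60 was -0.01 without wild-type replicate 1.

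The remaining kinesins held 1 higher and 4 lower genes. Kif21a, a regulator of microtubule growth at the cell cortex, was at 7.39, 6.36 and 7.12 in mutants and 7.08, 8.35 and 7.17 in wild types, a difference of -0.58 ± 0.43. Wild-type replicate 2 stood above all the other arrays, and the difference was -0.17 without it. Kif2a, a microtubule depolymerase, had a difference of 0.58 ± 0.58, which was -0.08 when wild-type replicate 1 was left out. Kif9, Kif12 and Kif21b were dim, with differences of -0.27 to -0.20.

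Cytoplasmic dynein, the main minus-end motor, had 9 genes measured, all of them bright, with 2 higher and 7 lower in mutants and a median difference of -0.11. Dync1h1, the heavy chain that holds the motor, was at 7.87, 8.26 and 7.68 in mutants and 8.81, 7.06 and 8.54 in wild types. The wild types held the highest and the lowest array, and the difference was -0.20 ± 0.47. The intermediate chains, which bind dynactin, differed by -0.43 ± 0.36 for Dync1i1 and -0.11 ± 0.21 for Dync1i2, and the light intermediate chain Dync1li1 by 0.04 ± 0.52. Without wild-type replicate 2 the difference of Dync1h1 was -0.74, and without wild-type replicate 1 it was 0.14.

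Dynein light chains were bright and overlapped between the groups. Dynll1, the LC8 light chain, which also serves as a hub for other proteins, was at 12.35, 12.25 and 11.56 in mutants and 12.38, 11.68 and 12.45 in wild types. Mutant replicate 3 and wild-type replicate 2 were the lowest arrays on all 3 of its probe sets, and its difference was -0.12 ± 0.32. Dynll2, its near relative, differed by -0.04 ± 0.18, with a second bright probe set at -0.60 ± 0.37. Dynlt3 differed by -0.27 ± 0.23, with other bright probe sets at 0.05 and -0.64. Dynlrb1 differed by -0.05 ± 0.26 and Dynlt1f by 0.13 ± 0.33. Mutant replicate 3 and wild-type replicate 2 were also the lowest arrays for Dync1h1, Myo1c, Myl9 and the brightest Klc1 probe set. On the second bright Klc1 probe set, wild-type replicate 2 was instead the highest array, at 7.36. Mutant replicate 3 and wild-type replicate 2 were the lowest 2 for 11.1% of motor genes, beside 9.37% of all genes. The same 2 arrays had the smallest 3' minus 5' difference of the Gapdh control probe sets, a sign of RNA or amplification length, at 0.75 and 0.73 against 1.07 to 1.39 on the others; its part in these values was not tested.

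Wild-type replicate 1 was the highest or lowest of the 6 arrays for 55.6% of motor genes, beside 58.8% of all genes, and it differed from the mean of the other wild types by a log2 of 1 or more for 11 motor genes (15.3%), beside 23.8% of all genes. These shares are not above those of all genes. By direction, 1630 of the 12393 genes were lower and 1319 higher by that much. The 5 kinesins so displaced were lower (Kif2a, Kif13a, Kif5b, Kif1b and Kif16b, -1.99 to -1.48) and the 4 of 40 myosins higher (Myo7b, Myo18a, Myl4 and Myl6b, 1.21 to 1.55). Of the dyneins, Dync1h1 was at 1.01 and Dync1li1 at -1.34 against the other wild types. With no minimum size, wild-type replicate 1 was the highest array for 6 of 23 kinesins and the lowest for 6. A test of kinesins against myosins was not made.

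**Figure D3:**
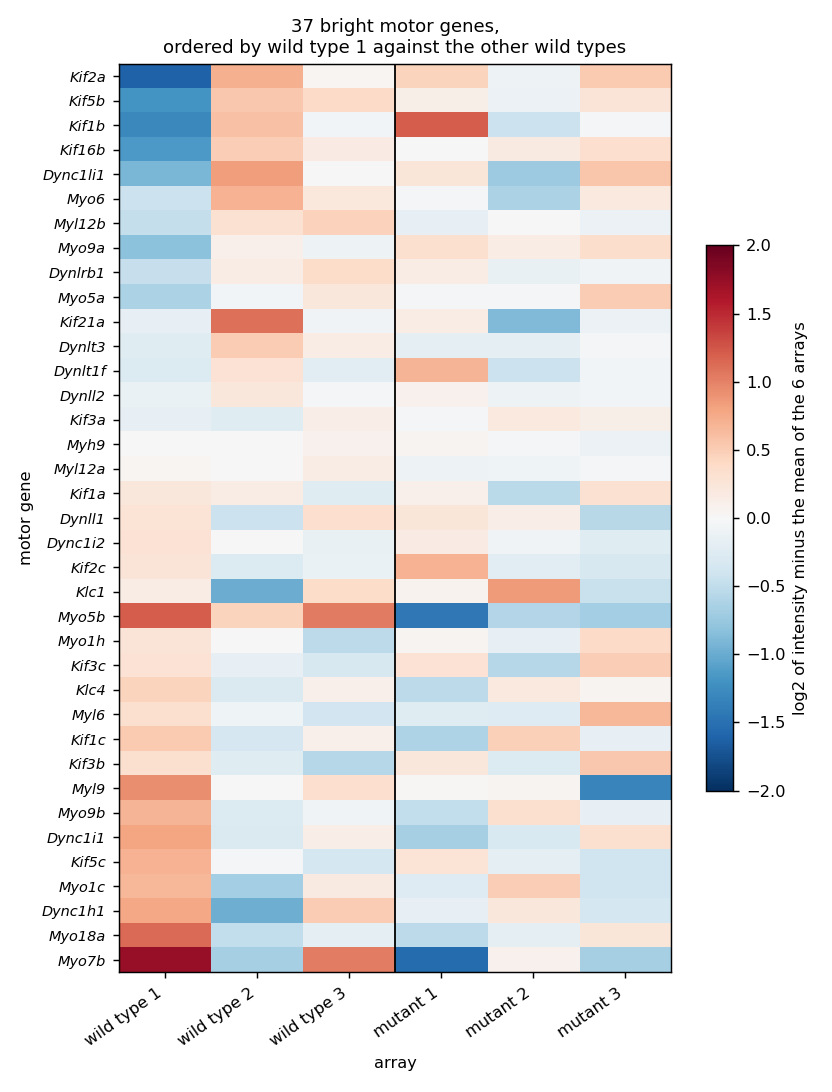
Log2 of intensity minus the mean of the 6 arrays (colour, from blue at -2 to red at 2) for the 37 bright motor genes in rows and the arrays in columns, wild types to the left of the line. Rows run from Kif2a, lowest in wild-type replicate 1 against the other wild types, to Myo7b, highest; Myo5b is higher in all 3 wild types than in all 3 mutants, and Myh9 is nearly level.

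Probe sets of one gene did not always move together on that array. Of 31 motor genes with 2 or more probe sets, 14 had differences of both signs, and of 15 with 2 or more bright probe sets, 4 did (Kif5b, Dynlt3, Myh9 and Myo5a). Kif5b was the clearest case: its brightest probe set was lowest in wild-type replicate 1 (8.22), whereas another bright one was highest there, at 10.36 against 8.81 to 9.49 on the other arrays. The 5 bright Kif5b probe sets gave differences of -0.79 to 0.18. For 6 of the 15 genes, bright probe sets put wild-type replicate 1 on opposite sides of the other wild types. Kif1b and Dynll1 had bright probe sets that kept one sign, from 0.11 to 0.60 and from -0.20 to -0.12. Without wild-type replicate 1, the bright Kif1b probe sets were at -0.49 to -0.01.

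**Figure D4:**
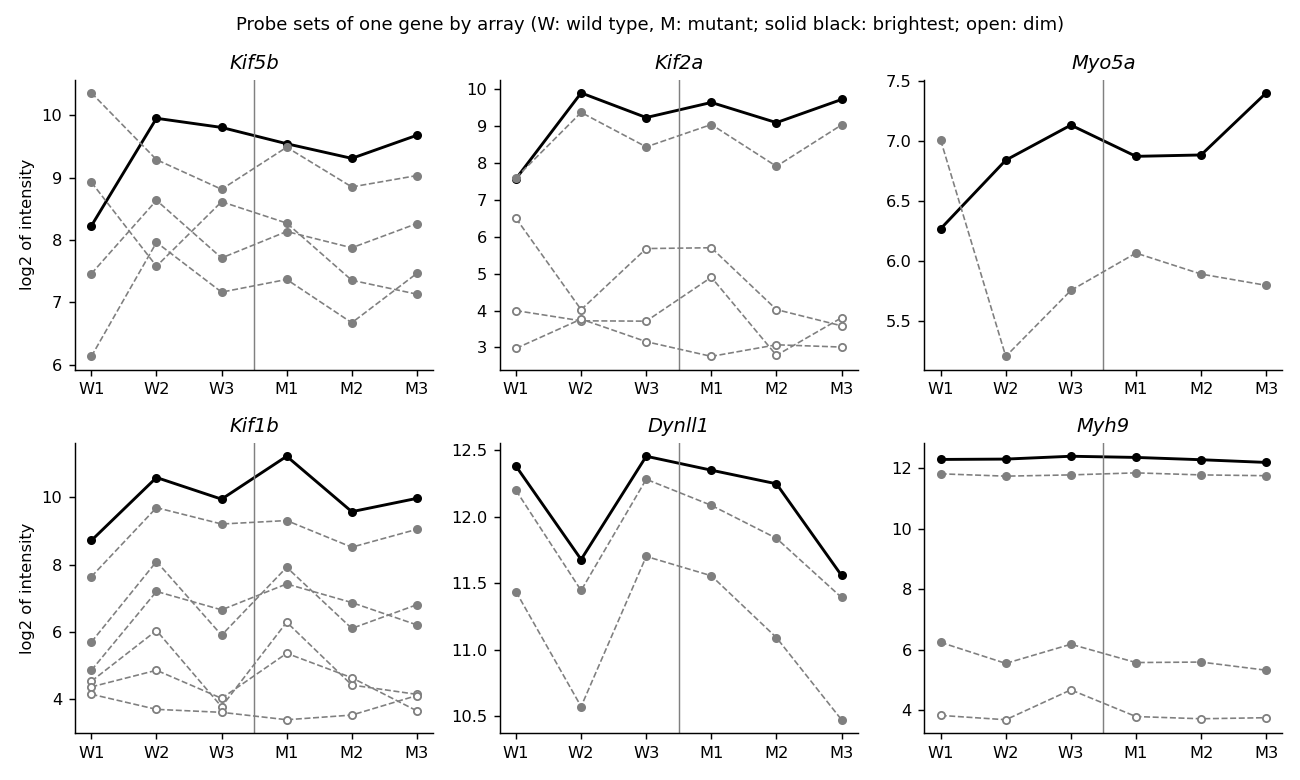
Log2 of intensity (vertical axis, a separate range for each gene) of each probe set of 6 motor genes on the wild-type (W1 to W3) and mutant (M1 to M3) arrays; the solid black line is the brightest probe set, filled points are bright and open points dim. Kif5b and Myo5a have probe sets that go in opposite directions in W1, while the 3 Dynll1 probe sets run in parallel and share low values in W2 and M3.

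Motor genes known from other cell types were set beside the markers of those cells. Neuron markers had higher values in the mutants, 13 of 14, with a median difference of 0.95 (0.64 without wild-type replicate 1), a list mean of 5.94 to 6.67 in mutants against 4.78 to 5.60 in wild types, and 0 genes past the threshold. The neuronal RNA-binding protein Elavl3 was at 8.93 to 9.27 in mutants and 7.34 to 8.05 in wild types. Motor genes known from neurons gave values of both signs, each with overlapping groups. Kif1a differed by -0.09, Kif5a by -0.29, Kif5c by -0.20 and Dync1i1 by -0.43, whereas Kif3c differed by 0.14, Myo5a by 0.30 and Kif1b by 0.50. Without wild-type replicate 1, Myo5a was at 0.07 and Kif1b at -0.01. The difference between these motors and the markers was not tested.

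Leukocyte, pigment cell and smooth muscle markers gave further comparisons. Of the macrophage and leukocyte markers, 11 of 12 were higher, with a median of 0.69 and a list mean of 6.80 in mutant replicate 2 against 5.06 to 5.35 on the other arrays, while Myo1f and Myo1g in that array were at 3.49 and 2.69, within the range of the other arrays. Of the pigment cell markers, 4 of 5 were higher, with a median of 0.64, beside 0.30 for Myo5a and 0.02 for Myo7a, both motors of melanosomes. Smooth muscle and pericyte markers had a median of 0.08, with 7 of 9 higher, beside -0.83 for Myl9 and -0.21 for Myh11. For 5 of the 9 (55.6%), beside 9.37% of all genes, mutant replicate 3 and wild-type replicate 2 were the lowest arrays, as for Myl9. Of these, Acta2 and Tagln were bright, and Actg2, Smtn and Cspg4 were dim. For Myl9, wild-type replicate 2 (7.60) lay just below mutant replicate 1 (7.62). Lens epithelium markers were lower in 4 of 6, with a median of -0.66. Cdh1, Slc38a3 and the dim Foxe3 had every mutant array below every wild-type array, as did 4.58% of all genes. Pax6 and Cdh2 were higher, by 0.47 and 0.50, and were at -0.07 and -0.31 without wild-type replicate 1. How far the number of epithelial cells enters the value of Myo5b was not tested. No marker in these lists passed the threshold.

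**Figure D5:**
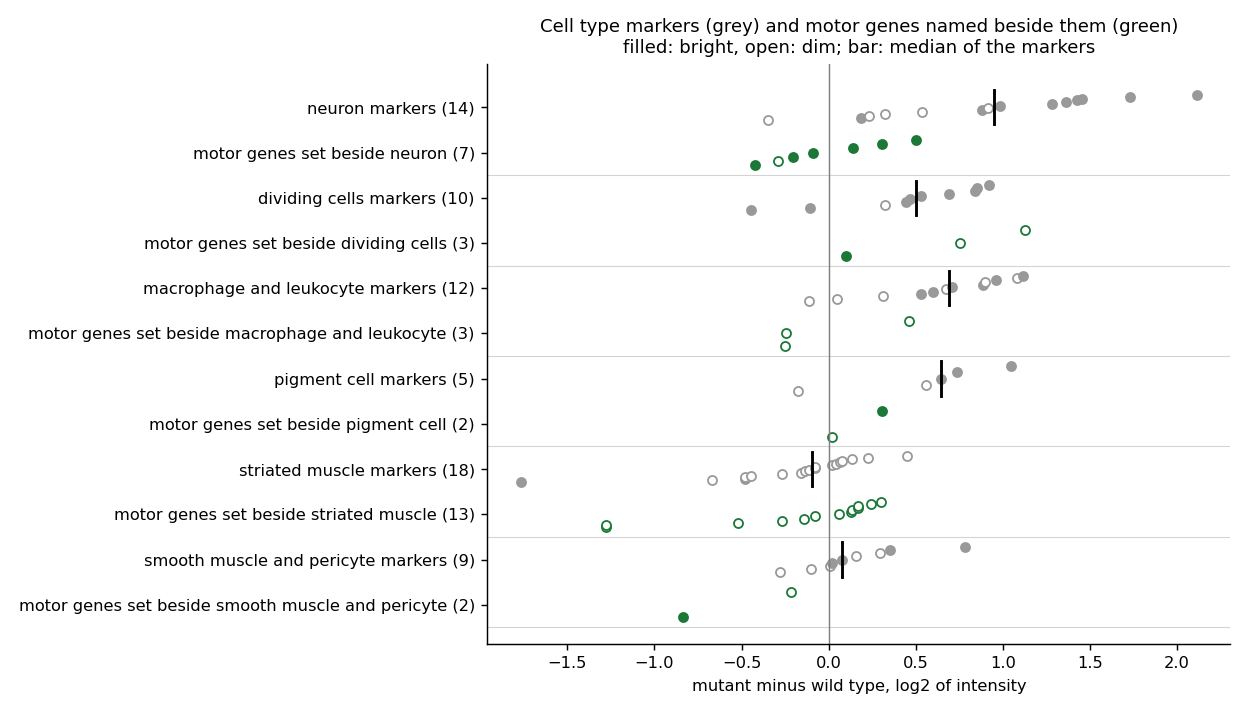
Differences, mutant minus wild type, in log2 of intensity (horizontal axis) for markers of 6 cell types (grey, black bar at their median) and for motor genes set beside each (green), with filled points bright and open points dim. Neuron markers have a median of 0.95, and the motor genes beside them lie between -0.43 (Dync1i1) and 0.50 (Kif1b).

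The partners of the motors were measured in the same fit, and 0 of them passed. Of 15 measured dynactin and dynein regulators, 6 were higher and 9 lower, with a median of -0.05. The lowest was Dctn1, at -0.38 ± 0.37, and at -0.04 without wild-type replicate 1. Nde1, a dynein regulator of mitosis and neuronal migration, differed by 0.57 ± 0.23 with groups apart, and Pafah1b1 (Lis1), which holds dynein on microtubules, by 0.27 ± 0.19. Of 11 kinesin adaptors and partners, 7 were higher and 4 lower, with a median of 0.15. The lower ones were Fez2 (-0.53 ± 0.21, groups apart), Mapk8ip1 (-0.31 ± 0.30), and the dim Mapk8ip3 (-0.86 ± 0.48) and Kifc3 (-1.11 ± 0.68). The kinesin-1 adaptor Mapk8ip2 (JIP2), which is abundant in neurons, had the lowest p, at 8.06, 7.87 and 7.71 in mutants and 6.36, 6.58 and 6.48 in wild types (difference 1.41 ± 0.18, limma adjusted p = 0.540), and the mitotic minus-end kinesin Kifc1 differed by 0.81 ± 0.31.

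Myosin regulators and ciliary transport genes had members in both directions. Of 14 myosin regulators and cargo adaptors, 8 were higher and 6 lower, with a median of 0.02; without wild-type replicate 1, 5 were higher and the median was -0.13. Gipc1, the adaptor of Myo6, differed by -0.51 ± 0.31 (-0.26 without that array), and Mlph, which links Myo5a to melanosomes, was dim with 0.46 ± 0.39. Of 12 genes of intraflagellar transport, the cargo system of kinesin-2 and dynein 2, 6 were higher and 6 lower, with a median of -0.02. Ift46 differed by -0.31 ± 0.19. Ift172 differed by -0.49 ± 0.49 and Ift80 by 0.66 ± 0.67, which were -0.03 and -0.11 without wild-type replicate 1.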

How the data were processed

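Per the labels, biotin-labelled product of Nugen Ovation amplification of lens RNA was measured in 6 samples. The authors deposited linear intensities for 22690 probe sets; RMA is named per the submitters' processing notes, and version, settings and genome build are not given in the sources used here. RMA's background and quantile steps can compress dim differences. Intensities were turned into log2 values with no pseudocount, and 64 control probe sets were left out. Probe sets were named from the platform annotation of the series; 691 that carry several symbols gave no gene its name.

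R 4.3.3 and limma 3.58.1 (lmFit, eBayes) compared mutant with wild type on 22626 probe sets, with no covariate, two-sided p-values and Benjamini-Hochberg adjustment over all of them. The fit was tested on simulated data. Members, role groups and lists were chosen with earlier results of these data known, so lists are described by counts and medians. Named motor genes were the 10 of lowest p in each direction, the lowest p of each role group, members whose probe sets differ in sign, and a fixed list. For the other lists the plan was the 2 of lowest p each. The text does not keep to it, since it leaves some of these out and names other genes. Same-numbered replicates had correlations of deviations from the group means of -0.26 to -0.07. These cannot decide whether same-numbered samples share a litter, which the sample titles do not say. The main fit did not pair them. No pair of arrays had more than 0.186% equal values. The number of arrays limits the precision.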

Additional observations from a re-analysis of the deposited data

How the results depend on the processing

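Under 15 alternative fits, limma called 0 motor genes at an adjusted p under 0.05; at a threshold of 0.1 the fit with all arrays equally weighted called 0, and with arrays weighted Myo5b had 0.0826. Over all probe sets 0 were called in each fit except with arrays weighted, which called 7; there 16 motor genes had an unadjusted p under 0.05, beside 16.2% of all genes, and wild-type replicate 3 had a weight of 5.65 against 0.22 for replicate 1. With the replicate number as a block (replicate block), 0 probe sets and 0 motor genes were called and the median difference of the motor genes stayed at -0.07. That median was -0.12 with median centring, which moved the median of all genes to -0.07. Leaving out single arrays gave -0.0947 to -0.0091, the last without wild-type replicate 1. The number of motor genes higher in mutants was 15 of 37 (40.5%) with dim probe sets left out, beside 53.5% of all bright genes. Of 208 role group medians under alternatives, 17 moved by more than the spread between replicates. Of 40 named motor genes, 27 kept one sign under every alternative fitted, among them Myo5b, Myl2, Myl4, Myo7b, Kif18a and Kif4. Myo5a, with 0.30 ± 0.29, was at -0.03 with arrays weighted; the other genes of both signs had differences within their SE. The cause of these changes was not tested.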

Other observations

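Among probe sets assigned to several symbols, 7 include a motor gene, and they belong in no comparison above. A pair that matches both cardiac heavy chains, Myh7 and Myh6, was dim, with differences of -0.51 ± 0.25 and -0.35 ± 0.17 (SE); on both, each mutant array was below each wild-type array except for 1 overlap on the first. The pair shared by Myl6 and its relatives Gm8894 and Gm5526 was bright and differed by -0.10 ± 0.21 and 0.00 ± 0.24. The 3 shared by Dynlt1a, Dynlt1c and Dynlt1f, a family of near-identical dynein light chains, differed by 0.04 to 0.21, with wild-type replicate 1 the lowest array on each. limma gave all 7 an adjusted p of 0.999.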
